A study of Mus musculus with 18 samples.

Results

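The 10 genes described here encode the 5 subunits of the transcription factor NF-κB (Rela, Relb, Rel, Nfkb1 and Nfkb2) and 5 of its best known feedback genes (Nfkbia, Nfkbiz, Bcl3, Tnfaip3 and Zfp36), measured in mouse liver after ischemia-reperfusion. They were chosen by symbol, through the Ensembl identifier that GENCODE vM21 pairs with each, and all 10 were found among the 47729 gene identifiers of the table. The study used RNA-seq of whole liver from wild-type mice (Wt), mice lacking the cytokine gene Il22 (Il22-/-) and mice lacking the gene of the soluble IL-22 binding protein (Il22bp-/-, gene symbol Il22ra2). Each genotype contributed 3 livers with ischemia-reperfusion (IR), in which the blood supply is interrupted and restored, and 3 with sham surgery, so that 9 IR livers are compared with 9 sham livers. The labels give no age, sex, strain or time after reperfusion.

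The table heads its columns IR or W with a number, and no header carries a genotype. W was read as sham by elimination, because 9 columns carry it and only 6 samples were wild type. The 3 genotypes are therefore mixed within each group and could not be compared, and their part in the spread within a group was not tested. The labels do not say whether each sample came from its own animal, so p-values measure only the spread between these samples.

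NF-κB is a family of dimers that inhibitor proteins of the IκB family hold in the cytoplasm of resting cells. Signals from the TNF receptor, the IL-1 receptor or Toll-like receptors activate the IKK kinases, which mark IκB for destruction and let the dimers enter the nucleus. Among the genes the dimers then switch on are their own subunits and their own inhibitors, which makes the response self-limiting. In liver, hepatocytes, Kupffer cells, endothelium and infiltrating leukocytes all use the pathway, and all contribute RNA to a whole-tissue sample.

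The columns held 10176617 to 12558179 reads in IR liver and 10716890 to 12763837 reads in sham liver. RNA of hepatocyte markers made up the largest of the marker sums in every column. The sum over 8 hepatocyte markers was 561664 to 907950 normalized counts in IR liver and 1972565 to 2388229 in sham liver. The sum over 8 neutrophil markers was 328 to 4320 in IR liver and 50.7 to 121 in sham liver. Of the hepatocyte markers, 7 of 8 were called lower by the test used below, against 37.7% of all genes tested. Ly6g, the marker most used to define neutrophils, was at 1.84 to 10.5 in IR liver and 0 to 1.11 in sham liver. In whole tissue, fewer cells of a type and less RNA per cell cannot be told apart, and the part of these marker shifts in the results below was not tested. Il22 had no read in any column. Il22ra2, the gene of the IL-22 binding protein, had 32.6 to 47.6 normalized counts in IR columns 7, 8 and 9 and 29.9 to 56.0 in sham columns 7, 8 and 9, and at most 1.02 in the other 12 columns, whereas 6 samples are labelled Il22bp-/-. No genotype was assigned from these values.

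The IR columns were uneven in sex-linked RNA. All 9 sham columns held Xist, which is transcribed from the inactive X chromosome of female cells, and had at most 2.07 normalized counts summed over 4 Y-linked genes. IR columns 3, 6 and 9 had the same pattern, and IR columns 1, 2, 4 and 7 had the opposite one, with Y-linked RNA and almost no Xist. IR columns 5 and 8 held both, with 542 and 964 for Xist beside Y-linked sums of 745 and 444. Results are therefore given for all 9 IR columns, without columns 5 and 8, and for columns 3, 6 and 9 alone against sham. These choices were made after seeing the data.

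Promoter sequences of the members are shown first because κB sites near the start of these genes are the textbook route of NF-κB autoregulation. The RefSeq promoter table (GRCm38.p6) holds windows of 300 bases, from 250 before to 50 after a transcription start, for 7 members. Nfkb1, Relb and Nfkbiz are not in it. The windows were searched on both strands for the κB consensus, with overlapping matches allowed, and capitals mark the matches in the stretches shown. A further match of Nfkb2, at chr19:46305459-46305468, is not printed. A match was found for 5 of the 7 members, against 9.55% of the 27025 genes and 8.46% of the 32851 windows in the table. Rela and Zfp36 had none, and the Rela window is printed for comparison. A match describes letters only and was not tested as a binding site. Each line below runs 5′ to 3′ on the strand of its gene. Nfkb2 on the plus strand at chr19:46304678-46304755 and at chr19:46305685-46305734, Rel on the minus strand at chr11:23771031-23771081, Nfkbia on the minus strand at chr12:55492598-55492897, Tnfaip3 on the minus strand at chr10:19015393-19015555, Bcl3 on the minus strand at chr7:19822724-19822773 and Rela on the plus strand at chr19:5637291-5637590 read as follows.
Nfkb2, first stretch: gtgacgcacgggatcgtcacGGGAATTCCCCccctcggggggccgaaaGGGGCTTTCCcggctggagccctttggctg
Nfkb2, second stretch: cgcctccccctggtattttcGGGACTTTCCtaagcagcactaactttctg
Rel: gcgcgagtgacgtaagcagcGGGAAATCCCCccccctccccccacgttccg
Nfkbia: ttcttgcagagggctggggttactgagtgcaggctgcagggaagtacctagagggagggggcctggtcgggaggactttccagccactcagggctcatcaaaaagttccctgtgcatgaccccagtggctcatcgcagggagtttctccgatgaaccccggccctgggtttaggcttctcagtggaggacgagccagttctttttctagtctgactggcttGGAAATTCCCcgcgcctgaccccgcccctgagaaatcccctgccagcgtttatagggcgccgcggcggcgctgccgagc
Tnfaip3: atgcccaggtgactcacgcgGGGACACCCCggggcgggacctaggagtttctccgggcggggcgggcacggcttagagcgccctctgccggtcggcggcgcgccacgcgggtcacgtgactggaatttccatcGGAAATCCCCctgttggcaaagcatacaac
Bcl3: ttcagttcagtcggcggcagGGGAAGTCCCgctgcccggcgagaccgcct
Rela: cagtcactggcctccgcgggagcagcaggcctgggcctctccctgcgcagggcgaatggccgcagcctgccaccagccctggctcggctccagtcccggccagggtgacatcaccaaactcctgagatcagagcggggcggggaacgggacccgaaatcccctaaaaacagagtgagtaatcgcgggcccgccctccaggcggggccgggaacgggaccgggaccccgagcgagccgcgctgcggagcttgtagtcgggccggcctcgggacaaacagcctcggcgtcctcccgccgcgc

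The first comparison asks which of these genes differ in RNA level between IR and sham liver. Of the 10 members, 8 were called higher in IR liver, none was called lower, and Rel and Nfkbia were not called (limma on log2 of the normalized count plus 1, Benjamini-Hochberg adjusted p under 0.05 over all 12686 genes tested). The background is high: 38.3% of all genes tested were called higher in IR liver and 37.7% were called lower. The median log2 fold change was 1.51 over the 10 members and 0.02 over all genes tested. Scaling the columns to equal totals moved that median of all genes to 0.25, called 5951 genes higher and 3695 lower (61.7% of calls higher, against 50.4% with the authors' scaling) and called all 10 members higher. All 10 members passed the filter on low counts, and the lowest value of any member in any column rested on 20 reads. In 6 members (Rela, Relb, Nfkb1, Nfkb2, Nfkbiz and Bcl3) every IR column lay above every sham column, a separation that 19.9% of all genes tested showed.

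**Figure D1:**
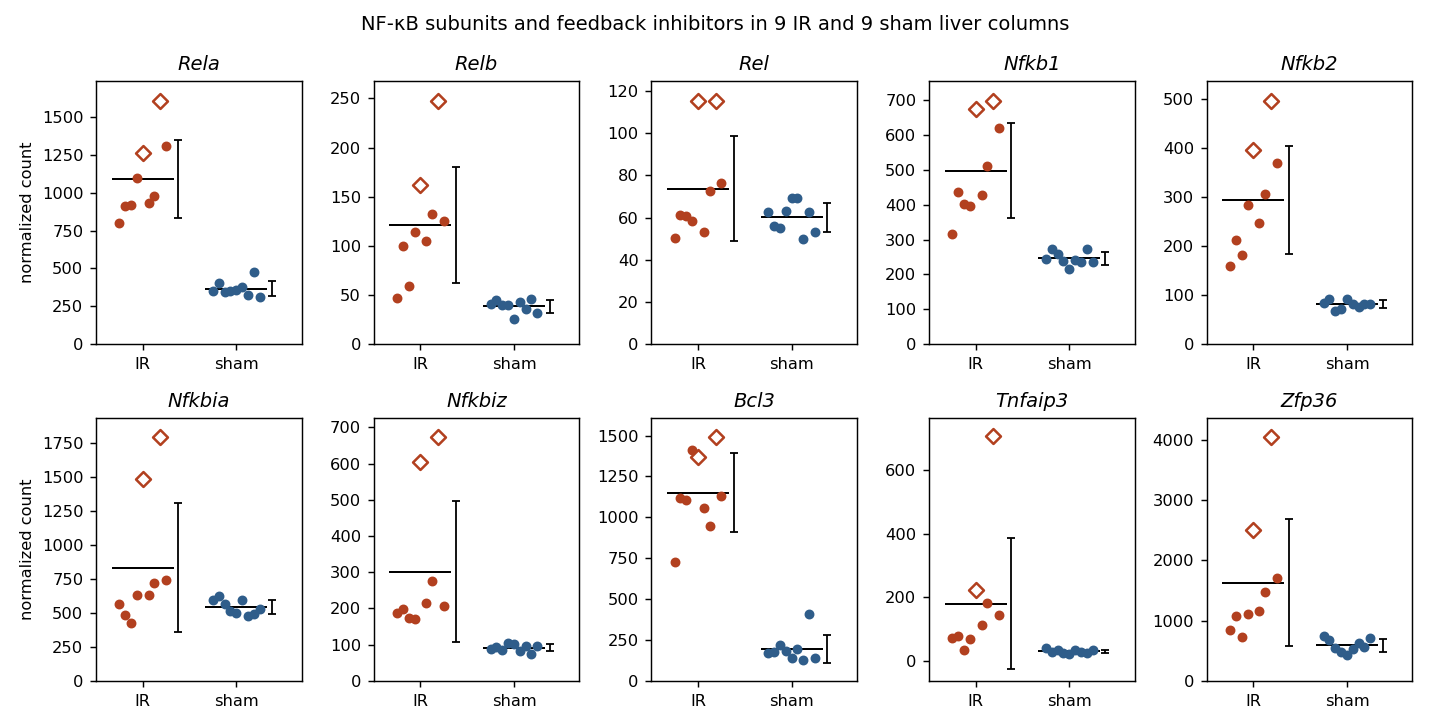
Normalized counts (vertical axes, linear) of the 10 members in 9 IR columns and 9 sham columns, 1 point per column, with the mean as a line and the SD as a bar beside it; open diamonds are IR columns 5 and 8. The diamonds top the IR group in most panels, and the Rel and Nfkbia panels overlap between groups in several columns. In the Tnfaip3 and Zfp36 panels only IR column 3 lies under the highest sham column.

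Rela encodes p65, the subunit that carries the main transactivation domain of the classical p65:p50 dimer. The gene occupies chr19:5637483-5648130 (GRCm38, plus strand). Its normalized count was 800 at the lowest, 979 at the median and 1608 at the highest in IR liver, and 311, 354 and 474 in sham liver. The lowest IR column was far above the highest sham column, and the highest IR columns were 8, 9 and 5. Rela averaged 1091 ± 256 in IR liver and 366 ± 49.3 in sham liver (SD, n = 9 each). From the log2 values of the fit rather than these means, the level was 2.93-fold higher, a log2 fold change of 1.55 (SE 0.12, limma adjusted p = 3.6e-10).

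Relb encodes the partner of p52 in the alternative pathway. Its locus is chr7:19606217-19629438, minus strand. Relb had 47.1, 114 and 248 normalized counts at the lowest, median and highest IR column, and 25.4, 40.4 and 46.1 in sham liver. The groups did not overlap, but the lowest IR column, IR 1, was only just above the highest sham column. The log2 fold change was 1.50 (SE 0.23, limma adjusted p = 7.7e-06) over all columns and 1.25 without IR columns 5 and 8.

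Rel encodes c-Rel, the subunit best known from lymphocytes and myeloid cells. The gene spans chr11:23736847-23770970 (minus strand). Rel had 50.2, 61.4 and 115 normalized counts at the lowest, median and highest IR column, and 49.9, 62.4 and 69.4 in sham liver. Of the IR columns, 5 lay within the sham range and 4 above it, and columns 5 and 8 stood apart at 115 each. The log2 fold change of 0.24 (95% interval -0.08 to 0.56) did not pass the test (limma adjusted p = 0.167, two-sided exact permutation p = 0.167). Without columns 5 and 8 it was 0.04 (95% interval -0.19 to 0.26, limma adjusted p = 0.779). With columns scaled to equal totals, Rel passed the test at 0.47 (limma adjusted p = 0.0258).

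Nfkb1 and Nfkb2 encode the precursors p105 and p100, which are processed to p50 and p52 and act as IκB-like inhibitors while unprocessed. Nfkb1 (chr3:135584655-135691547, minus strand) had 317, 437 and 699 normalized counts at the lowest, median and highest IR column, against 216, 242 and 273 in sham liver. Nfkb2 (chr19:46304320-46312385, plus strand) had 160, 284 and 497 in IR liver, against 68.3, 82.3 and 92.3 in sham liver. Neither gene had any overlap between the groups, and for both the lowest IR column was IR 1. The log2 fold change was 0.97 for Nfkb1 (SE 0.13, limma adjusted p = 1.0e-06) and 1.76 for Nfkb2 (SE 0.17, limma adjusted p = 1.5e-08). Nfkb2 shares 531 exon bases with AC114539.1, for which no value was used here, and 299 with Psd, which averaged 24.6 normalized counts. Both lie on the opposite strand, as do Gm16175, which shares 161 bases with Bcl3, and Gm44710, which shares 125 with Zfp36; these averaged 0.98 and 0.86. The sources used here do not say that the counting used strand, so reads from shared bases could not be assigned to 1 gene.

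Nfkbia encodes IκBα, the inhibitor that is destroyed on activation and made again within the same response. Its position is chr12:55489410-55492647, minus strand. Nfkbia had 425, 633 and 1792 normalized counts at the lowest, median and highest IR column, and 477, 532 and 621 in sham liver. IR columns 5 and 8 reached 1484 and 1792, while the other 7 IR columns lay between 425 and 742, with 1 of them below every sham column and 4 above. The log2 fold change of 0.45 (SE 0.22, 95% interval 0.00 to 0.90) did not pass the test (limma adjusted p = 0.0637, two-sided exact permutation p = 0.0632). Without columns 5 and 8 it was 0.13 (95% interval -0.10 to 0.35, limma adjusted p = 0.300). The call for Nfkbia changed with the fit. Reads recovered from the table gave 0.59 with edgeR (adjusted p = 0.0219) and 0.61 with DESeq2 (adjusted p = 0.0118). With limma, leaving out IR column 1, 2 or 3 also brought it past the threshold (adjusted p = 0.0484, 0.0339 and 0.0214).

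Nfkbiz and Bcl3 encode IκBζ and BCL-3, nuclear members of the IκB family that bind p50 or p52 dimers on DNA and modulate transcription there. Nfkbiz (chr16:55811375-55838899, minus strand) had 172, 207 and 673 normalized counts at the lowest, median and highest IR column, against 73.5, 92.9 and 104 in sham liver. Its IR columns fell into a tight set of 7 between 172 and 276 and the pair of columns 5 and 8 at 605 and 673, with no overlap with sham liver. Its log2 fold change was 1.51 (SE 0.24, limma adjusted p = 7.3e-06) and, without columns 5 and 8, 1.15 (SE 0.10, limma adjusted p = 9.8e-09).

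Bcl3 had the largest fold change of the 10 members. The gene (chr7:19808462-19822770, minus strand) had 725, 1116 and 1490 normalized counts at the lowest, median and highest IR column, against 131, 178 and 411 in sham liver. The groups were far apart although sham column 8, at 411, stood well above the other sham columns, of which the next was at 222. Bcl3 averaged 1150 ± 241 in IR liver and 197 ± 85.8 in sham liver (SD, n = 9 each). From the log2 values of the fit rather than these means, the level was 6.06-fold higher, a log2 fold change of 2.60 (SE 0.18, limma adjusted p = 1.0e-10). Without columns 5 and 8 the log2 fold change was 2.5. The SD of Bcl3 on the log2 scale was 0.32 in IR liver and 0.50 in sham liver, and 0.27 over the 8 sham columns other than column 8.

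Tnfaip3 encodes A20, a ubiquitin-editing enzyme that shuts down signalling from the TNF receptor and Toll-like receptors. The locus is chr10:19000910-19015657 (minus strand). Tnfaip3 had 36.2, 113 and 706 normalized counts at the lowest, median and highest IR column, and 23.1, 29.6 and 41.6 in sham liver. IR column 3 lay inside the sham range, the other 8 lay above it, and column 8 at 706 stood far above the next, column 5 at 224. The log2 fold change was 2.00 (SE 0.38, limma adjusted p = 7.4e-05) over all columns and 1.52 (SE 0.25, limma adjusted p = 1.9e-05) without columns 5 and 8. With a 19.5-fold span between its highest and lowest IR column, Tnfaip3 was the most variable member in IR liver, against a 1.80-fold span in sham liver.

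Zfp36 encodes tristetraprolin, which binds AU-rich elements in cytokine messages and speeds their decay. Its locus is chr7:28376784-28380253, minus strand. Zfp36 had 729, 1168 and 4046 normalized counts at the lowest, median and highest IR column, and 433, 567 and 738 in sham liver. IR column 3 lay just under the highest sham column, and the other 8 lay above every sham column. The log2 fold change was 1.28 (SE 0.25, 2.42-fold, limma adjusted p = 0.00010) over all columns and 0.94 (SE 0.16, limma adjusted p = 2.6e-05) without columns 5 and 8.

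**Figure D2:**
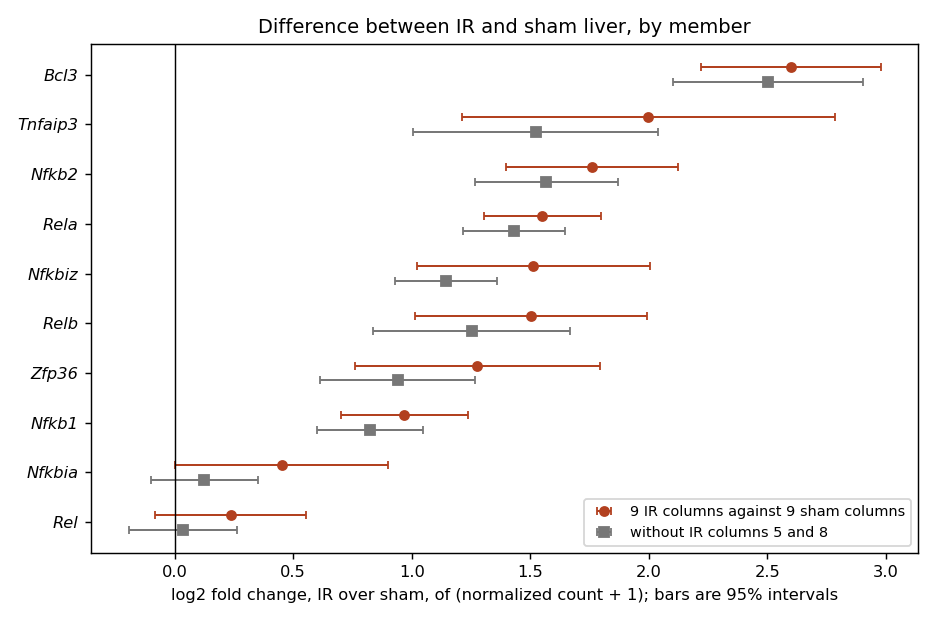
Log2 fold change of IR over sham liver (horizontal axis) for each member, with 95% intervals from limma, for all 9 IR columns (circles) and without IR columns 5 and 8 (squares). Bcl3 leads at 2.60 and 2.5, and the intervals of Rel and Nfkbia without the 2 columns include 0.

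The same 8 members were called higher in each of the 3 fits. Without IR columns 5 and 8, 37.4% of all genes tested were called higher, and the median log2 fold change of the members was 1.20. With IR columns 3, 6 and 9 alone, which like the sham columns held Xist and at most 2 Y-linked normalized counts, 34.1% of all genes tested were called higher and the members' median was 1.18. In that fit Bcl3 was at 2.56 (SE 0.25), Nfkb2 at 1.64 (SE 0.17), Rela at 1.51 (SE 0.13), Tnfaip3 at 1.44 (SE 0.31) and Nfkbia at 0.11 (SE 0.14).

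IR column 8 had the highest value of the 9 IR columns for all 10 members, against 20.7% of all genes tested. IR column 5 was among the highest 3 for all 10, against 33.5% of all genes tested. The other columns kept a partial order. Column 9 was among the highest 3 for 6 members, column 7 for 3 and column 4 for 1. The shares over all genes tested were 39.4%, 30.5% and 35.2%. Column 4 was the second highest for Bcl3 and the lowest for Nfkbiz. IR column 1 was the lowest for 6 members, column 3 for 3 and column 4 for 1. The share of all genes with each column lowest was not computed, so these counts have no background. The median difference from the sham mean over the 10 members was 2.64 on the log2 scale in column 8 and 2.08 in column 5, against 0.76 in column 1 and 0.66 in column 3. Among the IR columns, 8 and 5 also had the highest neutrophil marker sums, 4320 and 2669, with column 7 close at 2493 and a member median of 1.51. They led the monocyte sums, at 686 and 709, the erythroid sums, at 3181 and 1750, and the cholangiocyte sums, at 2247 and 2621. The cholangiocyte sum was carried by Sox9, which averaged 1037 in IR liver, against 49.8 for Krt19, 41.4 for Epcam and 30.3 for Krt7. The rise of the members in these columns was not tested against those markers or against the mixed sex-linked RNA.

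The distance of columns 5 and 8 from the others was not alike for all members. Distance here is the mean of columns 5 and 8 divided by the mean of the other 7 IR columns. It was widest for Tnfaip3, whose mean in columns 5 and 8 was 15.0 times the sham mean, against 3.23 times for the other 7 IR columns. It was narrowest for Bcl3, at 7.26 times against 5.44 times. For Nfkbia, the mean of columns 5 and 8 was 3.02 times the sham mean, against 1.11 times. For Nfkbiz it was 7.01 times, against 2.24 times, and for Rel 1.92 times, against 1.03 times. These ratios are a description of 2 columns and carry no test.

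**Figure D3:**
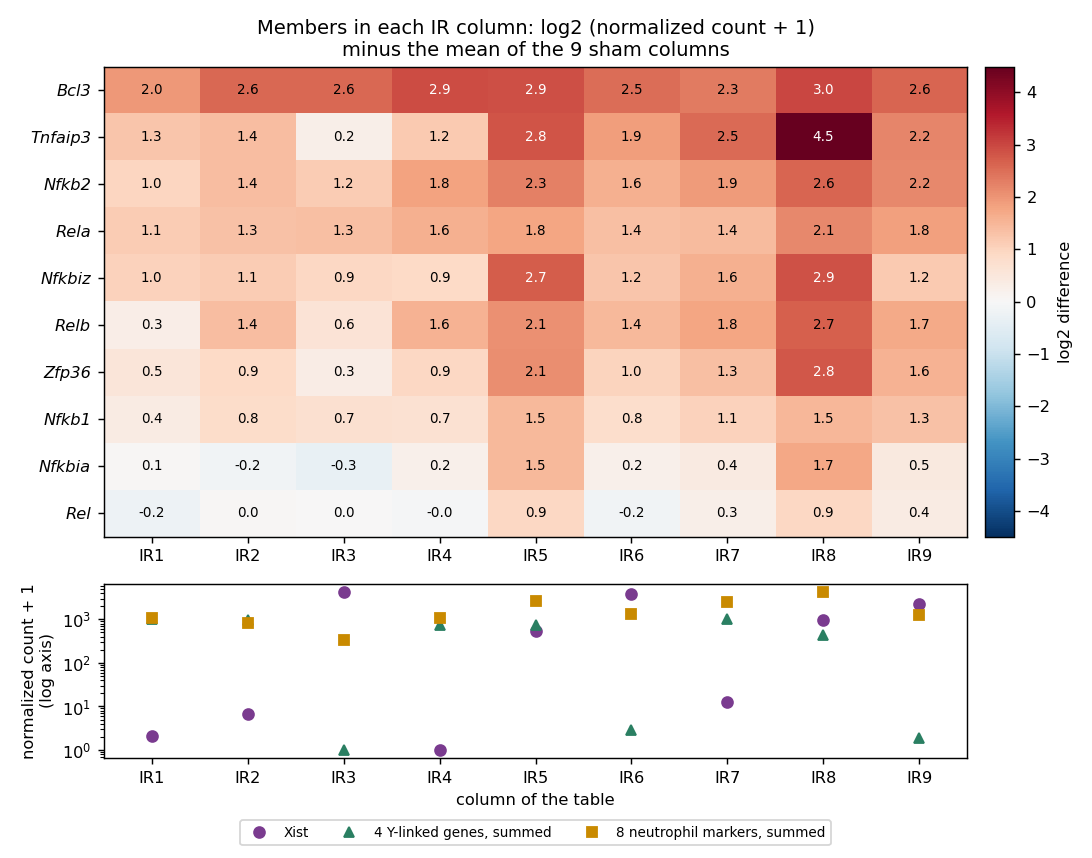
Upper panel, log2 of the normalized count plus 1 in each of the 9 IR columns minus the mean of the 9 sham columns, for each member. Lower panel, Xist, the sum of 4 Y-linked genes and the sum of 8 neutrophil markers in the same columns, as normalized count plus 1 on a log axis; IR columns 5 and 8 have both kinds of sex-linked RNA and the 2 highest neutrophil sums.

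Levels can be compared between members only after division by length, here the union of each gene's exons. On the scale of mean normalized count per kilobase, IR liver had Nfkbia at 516, Zfp36 at 470, Bcl3 at 464 and Rela at 355, then Nfkb2 at 64.2, Nfkbiz at 60.0, Nfkb1 at 41.3, Relb at 31.3, Tnfaip3 at 25.0 and Rel at 9.87. In that order the means of Nfkbia and Zfp36, and of Zfp36 and Bcl3, lay closer than the larger SD of the pair (SD 295, 303 and 97.4 per kilobase). So did the means of all neighbours from Nfkb2 down to Rel. Both genes of a pair were measured in the same columns, and their differences within a column were not compared. Whether neighbours differ was therefore not tested. Bcl3 and Rela, and Rela and Nfkb2, differed by more than either SD. Sham liver had Nfkbia at 337, Zfp36 at 170, Rela at 119 and Bcl3 at 79.4, then Nfkb1 at 20.4, Nfkbiz at 18.2, Nfkb2 at 17.7, Relb at 9.92, Rel at 8.04 and Tnfaip3 at 4.27. Among neighbours in sham liver, Nfkbiz and Nfkb2 were the pair whose means lay closer than the larger SD (SD 1.88 and 1.79). The order depends on the length used. By the longest transcript alone, Nfkb1 stood at 120 per kilobase in IR liver and 59.4 in sham liver, and the first 3 in IR liver were Bcl3 at 621, Zfp36 at 584 and Nfkbia at 527.

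For each member, the genes whose levels followed it most closely were sought among 9854 genes by Pearson correlation of log2 values centred within each group, over the 18 columns. Nfkbia was followed by Itpkb (r = 0.97) and Ppp1r15a (r = 0.96), Zfp36 by Sik1 (r = 0.96) and Btg2 (r = 0.95), and Tnfaip3 by Slc2a1 (r = 0.95) and Jun (r = 0.95). Rela was followed by Cactin (r = 0.97) and Spi1 (r = 0.94), and Nfkb1 by Pabpc1 (r = 0.94) and Eif4e (r = 0.94). Bcl3 had the weakest best match, Dda1 (r = 0.84). The points share libraries, so these values are descriptions without a test. IR columns 5 and 8 stood apart for several members, and sham column 8 did so for Bcl3. The weight of such columns on each correlation was not measured.

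The rest of the pathway was read from lists of receptors and adaptors, kinases, other IκB proteins, other negative regulators, classical NF-κB target genes and messages that Zfp36 is known to bind. The counts below stand against 38.3% of all genes tested called higher in IR liver and 37.7% called lower. Among 28 receptors and adaptors, 18 were called higher and 5 lower. Of these, Traf1, called higher, averaged 16.1 in IR liver and 8.64 in sham liver, and Cd40, called lower, 8.19 and 14.1. Each passed the filter on low counts only through the group where it was high. Cd14, the co-receptor for bacterial lipopolysaccharide, averaged 2066 ± 1447 in IR liver and 41.3 ± 7.85 in sham liver (SD, n = 9 each), a log2 fold change of 5.30 (limma adjusted p = 1.9e-11). Il1r1, the signalling IL-1 receptor, was higher by 2.65 on the log2 scale (limma adjusted p = 1.4e-09). Its accessory chain Il1rap averaged 524 ± 112 in IR liver and 1902 ± 250 in sham liver, a log2 fold change of -1.87 (limma adjusted p = 1.3e-11), and the Toll-like receptor gene Tlr4 had -0.98 (limma adjusted p = 7.4e-05).

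Of 8 kinases, 4 were called higher and 2 lower, beside background shares of 38.3% and 37.7%. Map3k14, which encodes the NIK kinase that drives p100 processing in the alternative pathway, averaged 130 in IR liver and 26.6 in sham liver, a log2 fold change of 2.21 (limma adjusted p = 6.9e-10). Ikbke had a log2 fold change of 1.31 (limma adjusted p = 1.4e-09). Chuk, which encodes IKKα, averaged 734 ± 63.1 in IR liver and 1473 ± 151 in sham liver, a log2 fold change of -1.0 (limma adjusted p = 2.8e-10), and Map3k7, which encodes TAK1, had -0.24 (limma adjusted p = 0.0162).

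Of 4 other IκB proteins, 3 were called higher and none lower. Nfkbid had a log2 fold change of 1.62 and Nfkbib one of 1.06 (limma adjusted p = 0.00012 and 1.2e-05). Nfkbid averaged 18.7 in IR liver and 4.63 in sham liver and passed the filter on low counts only through its IR columns. Its call is therefore no support for a direction. Of 15 other negative regulators, 14 were tested, 8 were called higher and 5 lower. Zc3h12a, which encodes the RNase regnase-1, had a log2 fold change of 2.13 and the A20-binding protein gene Tnip2 one of 1.60 (limma adjusted p = 2.8e-07 and 2.3e-08). Commd1 and Itch had log2 fold changes of -1.65 and -1.07 (limma adjusted p = 2.8e-11 and 7.8e-10).

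Of 25 classical target genes, 20 were tested, and 16 of these were called higher and 1 lower. The genes under the filter were Tnf, Il6, Sele, Bcl2a1b and Ccl20, the last with no read in any column. A gene that is near 0 in sham liver passes this filter only through its IR columns, so the count over tested genes is no support for a direction. Lcn2, an iron-binding acute phase protein, averaged 46582 ± 13626 in IR liver and 214 ± 49.0 in sham liver (SD, n = 9 each), a log2 fold change of 7.74 (limma adjusted p = 6.6e-18). Cxcl2, a neutrophil chemokine, averaged 334 ± 338 in IR liver and 1.79 ± 1.44 in sham liver, a log2 fold change of 6.36 (limma adjusted p = 1.2e-08). F3, which encodes tissue factor, was the 1 target called lower, at -0.88 (limma adjusted p = 0.0019).

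Of 16 messages that Zfp36 is known to bind, 10 passed the filter and were called higher in IR liver. Several did so only through their IR columns, with sham means of 0.47 for Ptgs2, 0.71 for Lif, 1.79 for Cxcl2 and 2.95 for Ccl3, so this count gives no support for a direction. The other 6 were Tnf, Il6, Il10, Csf2, Ifng and Il2. With no filter, 12 of the 16 were called higher and 1 lower. That fit had its own background, with 6335 of all 27259 genes tested called higher and 5574 called lower. Ifng averaged 0.33 in IR liver and 2.28 in sham liver. Cxcl2 led with the value above, followed by the chemokine Cxcl1, which averaged 1826 ± 493 in IR liver and 94.5 ± 29.6 in sham liver, a log2 fold change of 4.28 (limma adjusted p = 2.2e-13). This list shares 8 genes with the classical targets, so their counts are not independent.

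Without IR columns 5 and 8 the counts changed little. In that fit 4746 of all 12686 genes tested were called higher and 4729 were called lower. They were 17 higher and 6 lower for receptors and adaptors, 4 and 2 for kinases, 3 and 0 for other IκB proteins, and 7 and 5 for other negative regulators. The classical targets then had 16 higher and 2 lower, and the messages bound by Zfp36 had 9 higher and 0 lower. Both of these lists still held genes that passed the filter only through their IR columns, so their counts give no support for a direction.

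**Figure D4:**
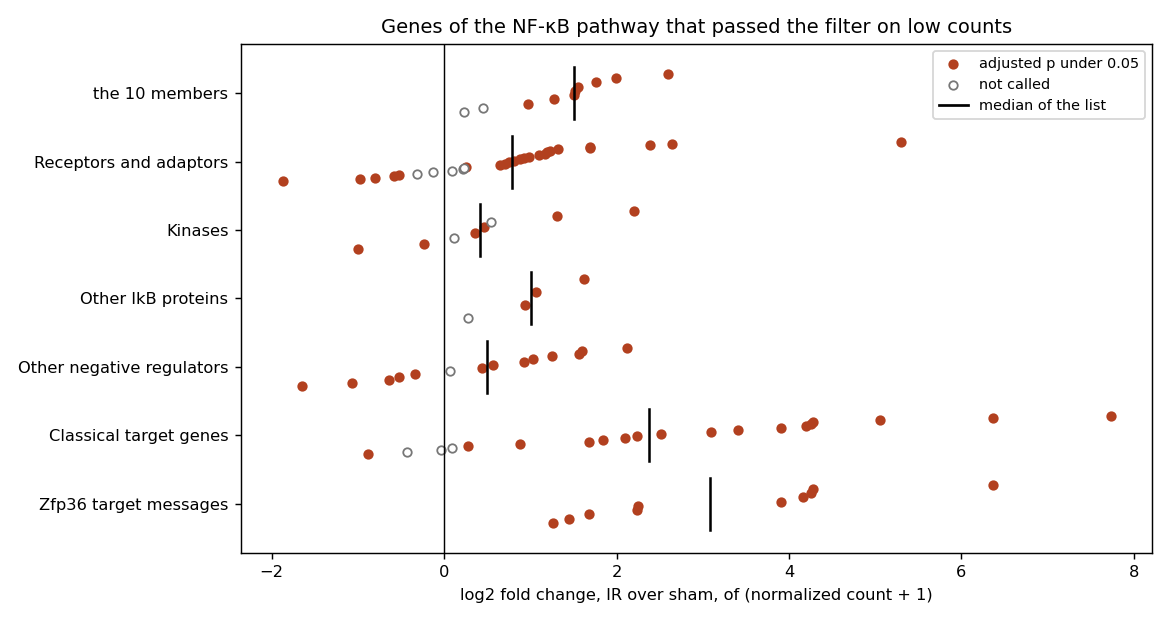
Log2 fold change of IR over sham liver (horizontal axis) for each tested gene of the members and of 6 pathway lists, with filled points for limma adjusted p under 0.05, open points for genes not called and a black line at each list's median. The medians are 1.51 for the members, 0.79 for receptors and adaptors, 0.41 for kinases and 2.38 for classical targets, beside 0.02 over all genes tested. Some classical targets, such as Cxcl2 and Ptgs2 with sham means of 1.79 and 0.47, passed the filter only through their IR columns. The median of that list therefore gives no support for a direction.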

How the data were processed

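The deposited signal, in 1 table of 18 columns, is a normalized count: reads per gene over a size factor, by the authors. Trimmomatic 0.33, STAR 2.5.0a, DESeq2 1.14 and GRCm38 stand in the submitters' processing notes, and the read counter is not given in the sources used here. Dividing each column by its smallest value above 0 gave whole reads for 100% of values, within 0.001, which entered edgeR 4.0.16 and DESeq2 1.42.0 as alternatives.

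Genes averaging at least 10 normalized counts over 18 columns were fitted on log2(value + 1) with limma 3.58.1 (R 4.3.3, trend), IR against sham, with Benjamini-Hochberg adjustment over 12686 genes. Fold changes on that scale understate low genes. The exact permutation test went through 48620 splits, with a smallest possible p of 4.11e-05. The fit was tested on simulated data. Coordinates are 1-based, from GENCODE vM21 (GRCm38).

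All 10 members are named, with, per list, the 2 called genes that rose most and the 2 that fell most. Members and lists were chosen with earlier results of these data known.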

Additional observations from a re-analysis of the deposited data

Results flagged for a closer look

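Dixon's test was applied to the normalized counts of the 10 members, without logarithms, in each group of 9 columns. This makes 20 groups, of which chance would mark about 1 in 20. The test was not run on the log2 scale of the fits, and a flag can depend on the scale. Tnfaip3 reached 706 normalized counts in IR column 8, with the next IR column at 224, a gap of 0.720 of the group's whole range. Bcl3 reached 411 in sham column 8, with the next sham column at 222, a gap of 0.677 of the range.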

How the results depend on the processing

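The genotype of a column, the sex-linked mix in IR columns 5 and 8 and the reading of W as sham limit every comparison. The alternatives were other pseudocounts, filters, scalings and tools, leaving out each column in turn, and the header number as a replicate block; no sign turned, and the 8 members called higher kept that call, except Nfkb1, at 1.96-fold, where a fold of at least 2 was required. That requirement left 1974 genes higher and 2155 lower. Scaling columns to equal totals moved the median log2 fold change of all genes to 0.25 and the calls to 5951 higher and 3695 lower, or 61.7% higher against 50.4% in the fit reported above; Rel then had 0.47 (limma adjusted p = 0.0258) and Nfkbia 0.69 (limma adjusted p = 0.0142). Nfkbia also passed with quantile normalization at 0.54 (limma adjusted p = 0.0417), edgeR at 0.59 and DESeq2 at 0.61, and leaving out 1 column gave 0.29 to 0.55, passing without IR column 1, 2 or 3. After each gene's mean in its group was subtracted from its log2 values, same-numbered IR and sham columns correlated between -0.0983 and 0.125. That range cannot show whether the numbers follow a shared order, and Il22ra2 was present in columns 7, 8 and 9 of both groups. The replicate block gave 4821 genes higher and 4751 lower. The cause of these shifts was not tested.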

Other observations

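Of 8 Kupffer cell and macrophage markers, 6 were called lower and 2 higher in IR liver, against 37.7% and 38.3% of all genes tested. The phosphatidylserine receptor gene Timd4 averaged 36.3 in IR liver and 128 in sham liver, while the scavenger receptor gene Marco averaged 546 in IR liver and 225 in sham liver. Lymphocyte markers were lower: the sum over 4 B cell markers was 7.64 to 15.5 in IR liver and 82.2 to 147 in sham liver, and that over 6 T and NK cell markers was 13.4 to 39.8 in IR liver and 74.3 to 114 in sham liver.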
